A study of Mus musculus with 9 samples.

Results

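The subject is 10 genes of mesangial and contractile cells of the glomerulus, the filtering unit of the kidney: Acta2, Tagln, Cald1, Myl9, Pdgfrb, Itga8, Serpine2, Des, Gata3 and Tbx18. They were taken by gene name from all non-control probes of a single-colour Agilent mouse array, which gave 21 probes of 56573 with values on every array. Acta2 had 4 probes, Cald1 had 5, Myl9, Itga8, Serpine2 and Des had 2 each, and the others had 1. A filter that asked for signal well above background throughout at least 1 group kept 19 of the 21 probes and left 24161 features to test, all 10 genes among them. The 2 probes not kept were Acta2 probe 4, not well above background on any array, and Myl9 probe 2, well above it on 1 wild-type array.

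The glomeruli came from male mice of the BTBR strain aged 22 weeks, in 3 groups of 3 samples, each sample on its own array. The first group was ob/ob mice given enarodustat, an oral inhibitor of prolyl hydroxylases, the oxygen-dependent enzymes that lead to loss of hypoxia-inducible factor, in the food for 18 weeks. The second was ob/ob mice on vehicle food, and the third wild-type mice on vehicle food. Mice homozygous for ob lack functional leptin, and both ob/ob groups carry this mutation. The labels do not say whether a sample is 1 mouse or a pool, so p-values measure the spread between these samples. Glomeruli were collected with magnetic beads, so every value is an average over all cells of the isolate. Fewer cells of a type and less RNA per cell cannot be told apart in such tissue.

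Mesangial cells hold the capillary loops of the glomerulus together, contract, and lay down the mesangial matrix. They descend from stromal progenitors, depend on platelet-derived growth factor (PDGF) signalling through the receptor encoded by Pdgfrb, and bind matrix through the integrin encoded by Itga8. When activated they are known to take up smooth muscle proteins such as the actin encoded by Acta2, whose gene, like many contractile genes, is controlled by serum response factor (SRF) at a DNA element named the CArG box.

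The sequences of Acta2 and Myl9 are shown because both genes are contractile, both were called higher at their probe 1 in ob/ob vehicle than in wild-type glomeruli, and both hold such elements close to the start of transcription. Each runs 5′ to 3′ over the 250 bases before the start, from RefSeq on GRCm38.p6. Acta2 lies on the minus strand at chr19:34255374-34255623 and Myl9 on the plus strand at chr2:156775214-156775463. Capitals mark a CArG box of 10 bases with at most 1 of its 6 middle bases off the consensus. The element reads alike on both strands.
Acta2: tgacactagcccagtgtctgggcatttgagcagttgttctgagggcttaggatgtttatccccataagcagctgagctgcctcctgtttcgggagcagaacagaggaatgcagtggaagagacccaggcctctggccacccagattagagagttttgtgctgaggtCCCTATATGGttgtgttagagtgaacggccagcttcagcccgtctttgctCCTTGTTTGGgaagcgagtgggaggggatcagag
Myl9: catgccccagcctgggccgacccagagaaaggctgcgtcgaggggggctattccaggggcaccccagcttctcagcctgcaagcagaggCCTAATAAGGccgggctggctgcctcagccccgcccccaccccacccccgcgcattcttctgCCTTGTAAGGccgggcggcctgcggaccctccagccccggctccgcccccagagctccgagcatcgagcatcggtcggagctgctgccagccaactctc

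In Myl9 the box CCTAATAAGG, 161 bases before the start, matched the consensus exactly, and CCTTGTAAGG at 99 bases before it was 1 base off. In Acta2 the boxes CCCTATATGG and CCTTGTTTGG, which start 84 and 34 bases before the transcript, were each 1 base off. Of the 8 genes of the 10 with an entry in the promoter table, Myl9 alone held an exact box, and Acta2, Myl9 and Tbx18 held at least 1 box with up to 1 base off. Among all 32851 promoters listed by RefSeq, 1.47% held an exact box and 8.59% a box with up to 1 base off. Of 16 genes of a wider contractile list described below, 2 held an exact box and 2 a box with up to 1 base off. Genes with more than 1 promoter, such as Cald1, counted once, while the shares are per promoter. Enrichment was not tested. A match describes these letters only, and the arrays say nothing of binding.

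The signal is given as log2 of the processed intensity over the 75th percentile of its array, so that 0 is the level of that percentile. A gene was read from its probe with the highest mean over all 9 arrays, and levels are set against each other for the same probe only. That mean includes the groups compared, and for Acta2 it decided the choice: probe 1 averaged 4.28 and probe 2 averaged 4.25 over the 9 arrays, but 3.06 and 4.18 in wild-type glomeruli. The highest wild-type mean, a rule added after the data were seen, would have read Acta2 from probe 2 and the other 9 genes from the same probe as here. The 75th percentile ranged from 210.4 to 325.3 intensity units, between 62.3% and 68.3% of probes had signal well above background, and no spot was saturated. Correlations over probes were 0.978 to 0.987 within groups and 0.967 to 0.984 between groups. All 11 tested podocyte markers and all 8 glomerular endothelial markers were well above background on all 9 arrays. The same held for the 12 proximal tubule, 6 parietal epithelial and 5 vascular smooth muscle markers tested, so this detection does not set glomeruli apart from other kidney tissue. Of the 10 mesangial and contractile genes, 9 were well above background on all 9 arrays, and Tbx18 was dim. Wild-type replicate 3 stood apart: all 10 genes were below the mean of their group there, by a median of -0.46 on the log2 scale, and the median level of 12 proximal tubule markers was 3.85 against 0.62 and 0.08 on the other wild-type arrays. Enarodustat replicate 2 was also high in proximal tubule markers (2.79, against -0.30 and -0.25 on the other enarodustat arrays), and 8 of the 10 genes were below their group mean on it, by a median of -0.21. The ob/ob vehicle replicate 3 was low in proximal tubule markers (-2.30, against -0.04 and 0.26 on the other ob/ob vehicle arrays), and 6 of the 10 genes were below their group mean there, at a median deviation of -0.24. On each of these arrays the median level of distal nephron and collecting duct markers was the highest of its group. It was 1.20 on wild-type replicate 3, 2.41 on enarodustat replicate 2 and 0.38 on ob/ob vehicle replicate 3. Whether tubule RNA lowered the 10 genes there was not tested.

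**Figure D1:**
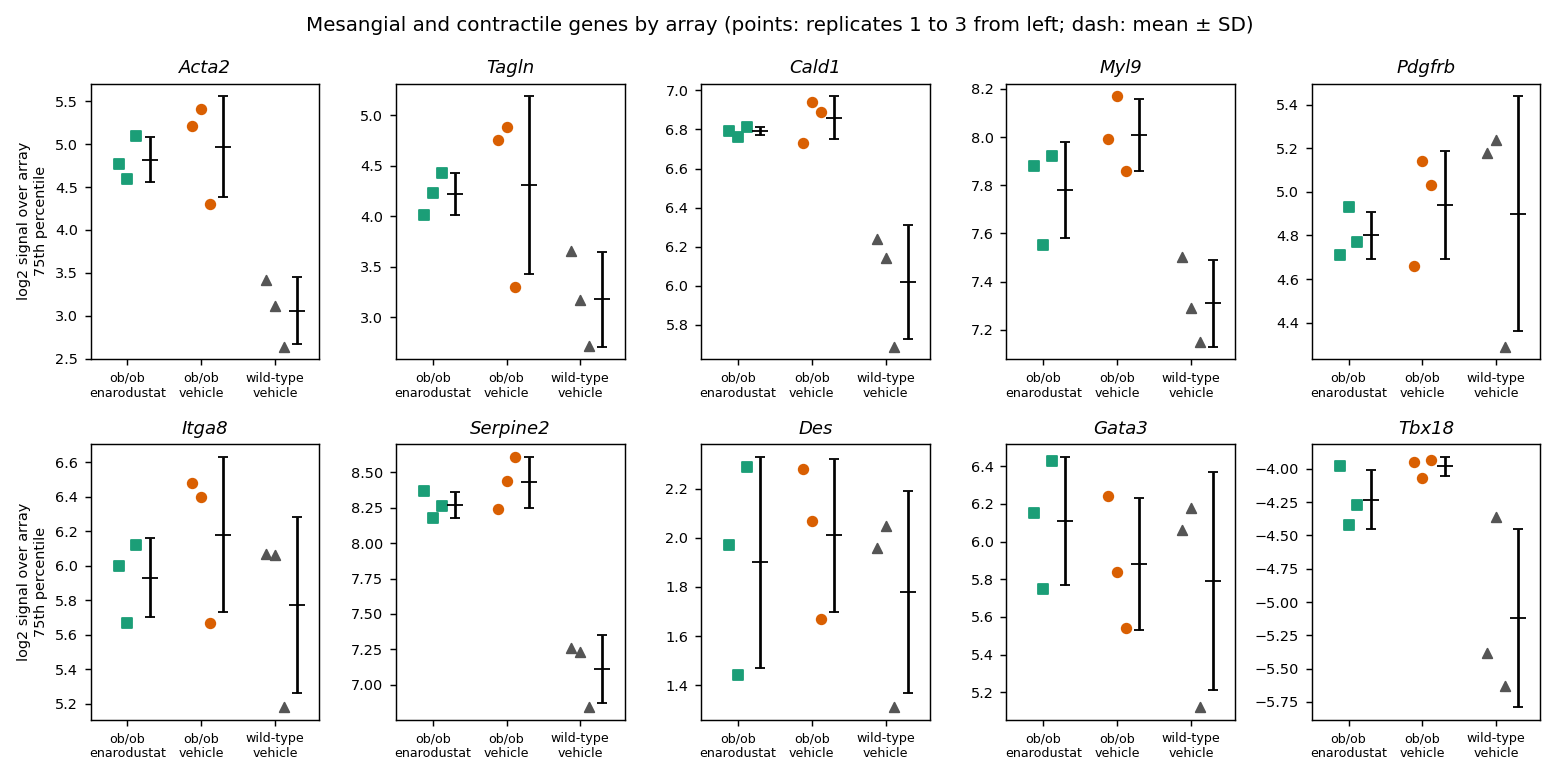
Log2 signal over the 75th percentile of the array (vertical axis, own range in each panel) for the 10 genes, with 1 point per array in replicate order and the mean ± SD of each group beside them. Acta2, Cald1, Myl9 and Serpine2 lay higher on every ob/ob array of either group than on every wild-type array, and the enarodustat and vehicle points of the ob/ob groups overlapped for all 10 genes.

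In ob/ob vehicle glomeruli the contractile genes Acta2 (read at probe 1), Cald1 and Myl9 and the protease inhibitor gene Serpine2 were called higher than in wild-type glomeruli. The contractile gene Tagln, the genes that mark mesangial identity, Pdgfrb, Itga8, Des and Gata3, and the dim Tbx18 were not called. Whether the called genes changed more than the others was not tested. By limma with Benjamini-Hochberg adjustment over all features, 4 of the 10 genes were called higher and 0 lower, where 7.55% of all features were called and 4.89% called higher. In 5 of the 10, all of them higher, the groups did not overlap, a share that was 30.7% over all features in either direction and 17.8% for higher. The median change of the 10 was 0.76 on the log2 scale, against 0.02 over all features tested. Tbx18, 1 of these 5, had passed the filter through the ob/ob vehicle group alone, and without it the count was 4 of 9 and the median 0.70. With Acta2 read from probe 2, 3 of the 10 were called.

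Among the contractile genes, Acta2 encodes smooth muscle alpha-actin. At its probe 1 (chr19:34316060-34316119, mm9) the level was 5.21, 5.41 and 4.30 in ob/ob vehicle glomeruli, against 3.42, 3.11 and 2.64 in wild-type glomeruli. The lowest ob/ob array lay above the highest wild-type array, and replicate 3 was the lowest in both groups. The difference was 1.91 ± 0.31 on the log2 scale (SE), a 3.77-fold higher signal with an adjusted p of 0.00914 in limma. This is a value of probe 1, which was chosen over probe 2 through its level in the ob/ob groups. With the probe of the highest wild-type mean, probe 2, the change of Acta2 was 0.19 (adjusted p = 0.622), and with its probes averaged 1.40 (adjusted p = 0.0218). At probe 1, leaving out any of the 9 arrays in turn kept the call, at changes of 1.70 to 2.25. When the mean level of proximal tubule markers was entered as a covariate, a fit added after the data were seen, the change was 1.89 and the adjusted p 0.0525.

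Tagln encodes transgelin, an actin-binding protein of smooth muscle. Its level was 4.76, 4.88 and 3.30 in ob/ob vehicle glomeruli, against 3.66, 3.17 and 2.72 in wild-type glomeruli. Replicates 1 and 2 of the ob/ob group were above all wild-type arrays, and replicate 3 was within their range. The difference of 1.13 ± 0.41 (SE) had an adjusted p of 0.14 in limma and was not called. Without ob/ob vehicle replicate 3 it was 1.64 with an adjusted p of 0.0188.

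Cald1 encodes caldesmon, which binds actin and tropomyosin and regulates contraction. Its probe 1 (chr6:34725339-34725398, mm9) read 6.73, 6.94 and 6.89 in ob/ob vehicle glomeruli, against 6.24, 6.14 and 5.69 in wild-type glomeruli, with no overlap. The change was 0.83 ± 0.15 (SE), or 1.78-fold, with an adjusted p of 0.0142 in limma. Without ob/ob vehicle replicate 2 the call was lost (0.79, adjusted p = 0.0513), and with the tubule covariate the change was 0.67 (adjusted p = 0.0771).

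Myl9 encodes the regulatory myosin light chain of smooth muscle and non-muscle cells. At chr2:156607301-156607360 (mm9) it read 7.99, 8.17 and 7.86 in ob/ob vehicle glomeruli, against 7.50, 7.29 and 7.15 in wild-type glomeruli. The groups did not overlap, and the change was 0.70 ± 0.15 (SE), 1.62-fold, with an adjusted p of 0.0283 in limma. The call was kept in 4 of the 9 fits that left out 1 array, those without wild-type replicate 1 or any enarodustat array. When replicate 2 or 3 of the wild-type group, or any ob/ob vehicle array, was left out, the adjusted p was 0.0507 to 0.0934 at changes of 0.61 to 0.77. With the tubule covariate the change was 0.59 (adjusted p = 0.149). The call was also lost with the replicate number as a block (0.0605), with quantile normalization (0.0745), with no filter on dim probes (0.0745) and without wild-type replicate 3 and enarodustat replicate 2 (0.0544).

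Serpine2 encodes protease nexin-1, a secreted inhibitor of thrombin and plasminogen activators. Its probe 1 (chr1:79790914-79790973, mm9) read 8.24, 8.44 and 8.61 in ob/ob vehicle glomeruli, against 7.26, 7.23 and 6.84 in wild-type glomeruli. Every ob/ob array lay well above every wild-type array. The change was 1.32 ± 0.15 (SE), 2.50-fold, with an adjusted p of 0.0033 in limma, the smallest of the 10 genes. It stayed between 1.19 and 1.42 without any of the 9 arrays, and the call was kept each time.

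The receptor and adhesion genes moved less than their spread. Pdgfrb, the PDGF receptor, read 4.66, 5.14 and 5.03 in ob/ob vehicle glomeruli, against 5.18, 5.24 and 4.29 in wild-type glomeruli. Its change was 0.04, with a 95% interval from -0.54 to 0.62. Itga8, the integrin alpha-8 chain that marks mesangial cells in the glomerulus, read 6.48, 6.40 and 5.67 in ob/ob vehicle glomeruli, against 6.07, 6.06 and 5.18 in wild-type glomeruli. Within each group its replicate 3 was lowest, and the change of 0.41 had an interval from -0.26 to 1.09. For both genes the groups overlapped and the interval allows a change in either direction.

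Des encodes the intermediate filament desmin, found in mesangial cells and, after injury, in rodent podocytes. It read 2.28, 2.07 and 1.67 in ob/ob vehicle glomeruli, against 1.96, 2.05 and 1.31 in wild-type glomeruli, a change of 0.23 with an interval from -0.40 to 0.86. Gata3, a zinc finger transcription factor needed in mesangial cells and also active in the collecting duct, read 6.24, 5.84 and 5.54 in ob/ob vehicle glomeruli, against 6.06, 6.18 and 5.12 in wild-type glomeruli. Its change was 0.09, with an interval from -0.62 to 0.80.

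Tbx18, a T-box factor of the stromal lineage, was the gene of the 10 not well above background on every array. It read -3.95, -4.07 and -3.93 in ob/ob vehicle glomeruli, against -5.38, -4.36 and -5.63 in wild-type glomeruli. It was well above background on all 3 ob/ob vehicle arrays, on 2 enarodustat arrays and on 1 wild-type array, so that it passed the filter through the ob/ob vehicle group alone. A gene that enters in this way had to differ, and its values are given as a description. The fitted change was 1.14 ± 0.29 (SE), with an adjusted p of 0.0534 in limma, and was not called. Wild-type replicate 2, at -4.36, was the 1 wild-type array well above background and the nearest to the ob/ob vehicle arrays. Against the other 2 wild-type arrays alone only a bound can be given, an at least 2.15-fold higher signal in ob/ob vehicle glomeruli. As it leaves out the highest wild-type array, this is no minimum for the whole group. The bound sets each of these 2 arrays at the lowest signal among its probes well above background, or at the probe's own signal where that is higher.

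**Figure D2:**
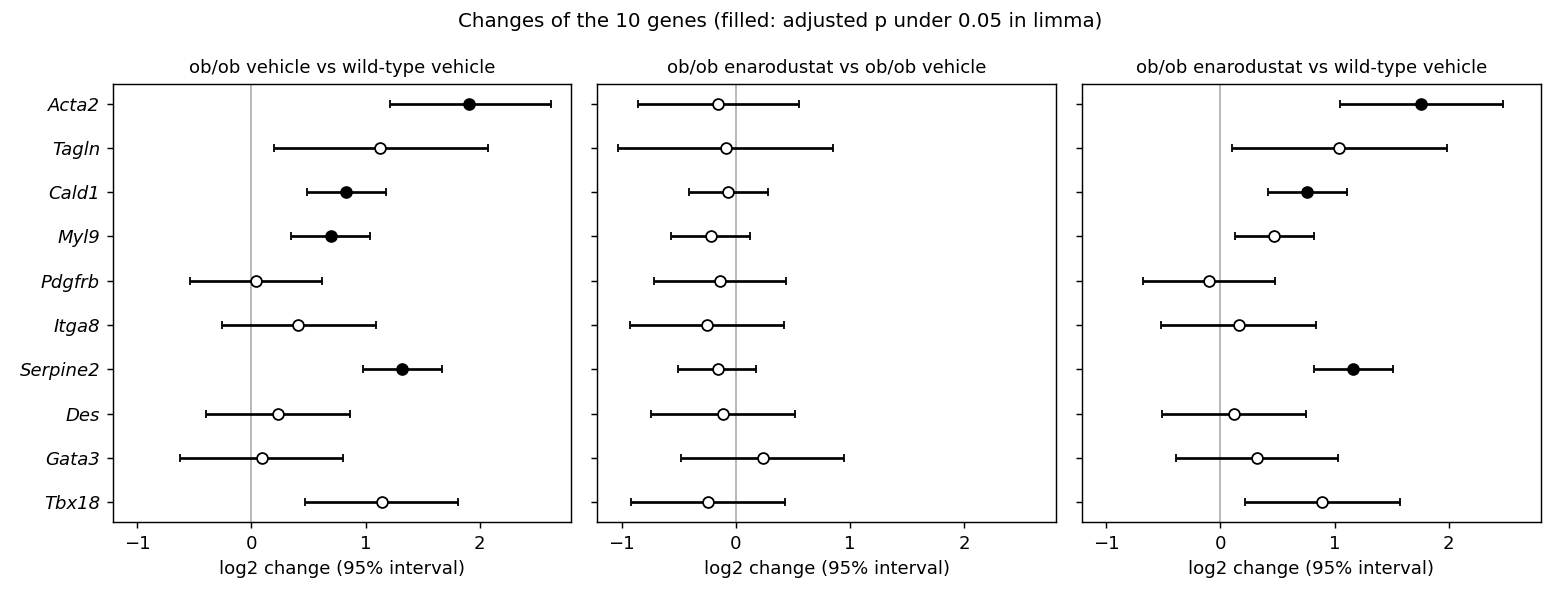
Log2 change with its 95% interval (horizontal axis) for the 10 genes in the 3 comparisons, with filled points for an adjusted p under 0.05 in limma. Acta2, Cald1, Myl9 and Serpine2 were called in ob/ob vehicle against wild type, none of the 10 in enarodustat against ob/ob vehicle, and Acta2, Cald1 and Serpine2 in enarodustat against wild type.

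Enarodustat in ob/ob mice gave no called change in the 10 genes. By limma 0 of the 10 were called, and 0% of all features were. At an unadjusted p under 0.05, 7.01% of all features passed and none of the 10 did. The enarodustat and vehicle arrays overlapped for every one of the 10, where 16% of all features had groups that did not overlap. The changes ranged from -0.25 to 0.24 on the log2 scale with a median of -0.15, against -0.03 over all features, and 9 of the 10 were negative, the exception being Gata3.

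Acta2 read 4.77, 4.59 and 5.10 in enarodustat glomeruli, all within the range of 4.30 to 5.41 in ob/ob vehicle glomeruli, and its change of -0.16 had an interval from -0.86 to 0.55. Serpine2 read 8.37, 8.18 and 8.26 in enarodustat glomeruli, against 8.24, 8.44 and 8.61 in ob/ob vehicle glomeruli, a change of -0.16 with an interval from -0.51 to 0.18. For Cald1 the enarodustat arrays read 6.79, 6.76 and 6.81, and the change was -0.07 with an interval from -0.41 to 0.28. The intervals stayed within 0.51 of 0 on the log2 scale for Serpine2 and Cald1, and within 0.86 for Acta2.

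Myl9 read 7.88, 7.55 and 7.92 in enarodustat glomeruli, and its change from ob/ob vehicle was -0.22 with an interval from -0.57 to 0.12. Tagln read 4.01, 4.23 and 4.43 with enarodustat, between ob/ob vehicle replicate 3 and the other vehicle arrays. Its change was -0.09, and its interval of -1.03 to 0.85 was the widest of the 10. Gata3 was the exception in sign, at 6.15, 5.75 and 6.43 in enarodustat glomeruli, a change of 0.24 with an interval from -0.48 to 0.95. Markers of the distal nephron and collecting duct, where Gata3 is also active, had median levels of 1.04 to 2.41 on the enarodustat arrays, against -2.61 to 0.38 on the ob/ob vehicle arrays and -2.67 to 1.20 on the wild-type arrays. None of these 10 markers was called, 9 of them were well above background on all 9 arrays, and their part in the Gata3 values was not tested.

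Set against wild type, enarodustat glomeruli were again higher in Acta2, Serpine2 and Cald1. In this comparison 3 of the 10 genes were called higher and 0 lower, where 10.2% of all features were called and 6.1% called higher. The groups did not overlap in 5 of the 10, all higher (30.8% of all features in either direction, 16.8% higher), and the median change was 0.62, against -0.01 over all features. Acta2, again at probe 1, was 1.76 ± 0.31 higher on the log2 scale (3.39-fold, adjusted p = 0.0115 in limma), Serpine2 1.16 ± 0.15 (2.24-fold, adjusted p = 0.0046) and Cald1 0.76 ± 0.15 (1.70-fold, adjusted p = 0.0176). Both comparisons with wild type use the same 3 wild-type arrays, so they are not independent.

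With Acta2 read from the probe of the highest wild-type mean, its change was 0.00 (adjusted p = 0.997 in limma) and 2 of the 10 were called. The calls of Acta2 at probe 1 and of Serpine2 were kept without any of the 9 arrays, while that of Cald1 was lost without enarodustat replicate 1 (adjusted p = 0.0531) or 3 (0.0563). With wild-type replicate 3 and enarodustat replicate 2 both left out, Acta2 was not called (change 1.67, adjusted p = 0.0569). When all probes of a gene were averaged, Cald1 (0.59, adjusted p = 0.0539) and Serpine2 (0.63, adjusted p = 0.0856) lost their calls. Myl9 had a change of 0.47 with no overlap and an adjusted p of 0.0864, and Tagln 1.04 with no overlap and an adjusted p of 0.147. Tbx18 had 0.89 with overlap and an adjusted p of 0.0933. It was not well above background on every array of either group, so no bound is given here. Without ob/ob vehicle replicate 3, which enters this comparison through the shared spread, the change of Tagln was 1.04 (adjusted p = 0.036). Pdgfrb (-0.10), Des (0.12), Itga8 (0.16) and Gata3 (0.32) overlapped with wild type.

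The probes of 1 gene did not move alike. As features of their own, 7 of the 19 kept probes were called higher in ob/ob vehicle against wild type and 0 lower, where 7.21% of all 36671 probes were called and 4.2% called higher. With enarodustat against wild type 4 of the 19 were called higher, where 9.62% of all probes were called and 5.17% called higher. In enarodustat against ob/ob vehicle 0 of the 19 were called, as were 0% of all probes.

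Acta2 showed the widest gap between its probes. Probes 1 and 3 lie close together on the genome (probe 3 at chr19:34315697-34315756, mm9) and rose by 1.91 and 2.10 in ob/ob vehicle against wild-type glomeruli. Probe 3 read 0.33, 0.48 and -0.80 in ob/ob vehicle glomeruli, against -1.56, -1.91 and -2.83 in wild-type glomeruli, with an adjusted p of 0.0176 in limma. Probe 2, which spans chr19:34322995-34326249 (mm9) and thus a junction of exons, read 4.36, 4.67 and 4.09 in ob/ob vehicle glomeruli, against 4.29, 3.94 and 4.33 in wild-type glomeruli. Its groups overlapped, and its change was 0.19 ± 0.20 (adjusted p = 0.625 in limma); in enarodustat against wild type it was 0.00. The sequence of this probe is shown because it differs from the others in behaviour and lies in the actin coding sequence, which is highly conserved among actin genes, so that signal from other actins could reach it.
Acta2 probe 2: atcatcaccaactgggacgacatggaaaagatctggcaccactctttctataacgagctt

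Whether this probe took signal from other actins was not tested. The other actin genes, looked up after the values of Acta2 were seen, included the cytoplasmic actins Actb (0.11, adjusted p = 0.667 in limma) and Actg1 (0.12, adjusted p = 0.731) in ob/ob vehicle against wild type. The smooth muscle gamma-actin Actg2 had 0.26 (adjusted p = 0.474), the cardiac actin Actc1 was called higher (1.20, adjusted p = 0.0369), and the skeletal actin Acta1 had 1.87 (adjusted p = 0.0544).

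For Cald1, probes 1, 2 and 3 rose by 0.83, 0.79 and 1.16 in ob/ob vehicle against wild type, with adjusted p of 0.0151, 0.0423 and 0.0416 in limma. Probes 4 and 5 had changes of 0.14 and 0.47 and were not called. Probe 3 lies at chr6:34703475-34703534 (mm9) and is shown as the probe with the largest change of the 5. It read 3.09, 3.07 and 3.83 in ob/ob vehicle glomeruli, against 2.55, 2.35 and 1.62 in wild-type glomeruli, with no overlap.
Cald1 probe 3: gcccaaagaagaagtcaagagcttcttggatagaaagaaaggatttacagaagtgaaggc

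Serpine2 probe 2 read 1.21, 1.63 and 1.86 in ob/ob vehicle glomeruli, against 1.59, 1.28 and 0.65 in wild-type glomeruli, and its change of 0.39 had an adjusted p of 0.445 in limma, so the called change of Serpine2 stands on probe 1. The second probes of Itga8 and Des had changes of -0.04 and 0.01, and like the first ones they were not called.

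**Figure D3:**
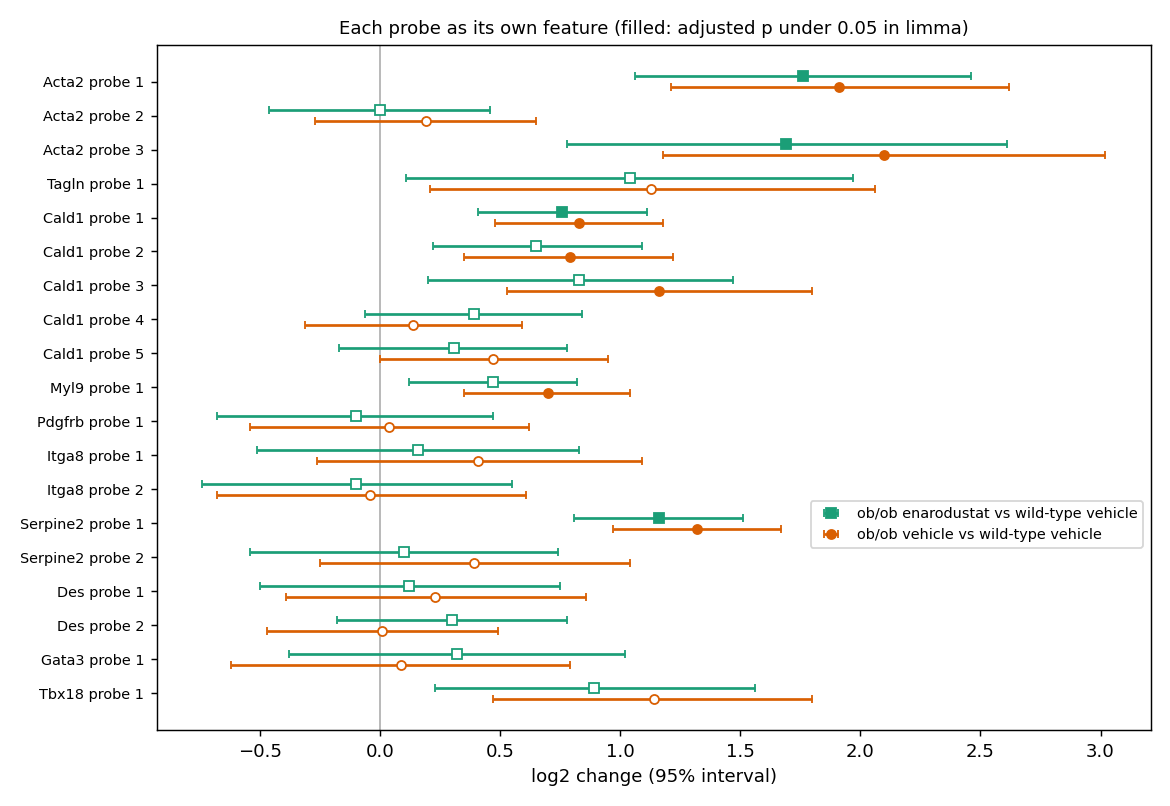
Log2 change with its 95% interval (horizontal axis) for each of the 19 kept probes as its own feature, in both comparisons with wild type, filled where the adjusted p was under 0.05 in limma. Acta2 probes 1 and 3 lie at 1.91 and 2.10 in ob/ob vehicle against wild type and probe 2 at 0.19, and Serpine2 probe 2 lies at 0.39 where probe 1 is at 1.32.

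Because replicate 3 of the wild-type group was low in all 10 genes, the genes were also set against Itga8 on the same array, a scaling added after the data were seen. The offset between probes of different genes has no meaning, and only its difference between arrays is read. Every feature then loses the change of Itga8 itself, 0.41 in ob/ob vehicle against wild type and 0.16 in enarodustat against wild type. Acta2 at probe 1 relative to Itga8 was -1.23, -1.07 and -1.02 in enarodustat glomeruli, -1.27, -0.99 and -1.37 in ob/ob vehicle glomeruli and -2.65, -2.94 and -2.53 in wild-type glomeruli. The 6 ob/ob arrays thus lay between -1.37 and -0.99, more than 1 log2 unit above every wild-type array.

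On this scale Acta2 was 1.5 ± 0.34 higher in ob/ob vehicle than in wild-type glomeruli (adjusted p = 0.0259 in limma, with 1.73% of all features called). With enarodustat against wild type it was 1.6 ± 0.34 higher (adjusted p = 0.0186, with 1.5% of all features called). Acta2 was the only one of the 10 called in either comparison, and Itga8 itself could not be called. Within groups Acta2 correlated with Itga8 at r = 0.914 and Serpine2 at 0.281. The scaling took the SD in ob/ob vehicle glomeruli from 0.59 to 0.20 for Acta2 and from 0.18 to 0.61 for Serpine2. A call on this scale thus depends on how closely a gene follows Itga8 within groups. Serpine2 relative to Itga8 read 1.77, 2.04 and 2.94 in ob/ob vehicle glomeruli, against 1.19, 1.17 and 1.66 in wild-type glomeruli, a change of 0.91 ± 0.38 with an adjusted p of 0.291. The changes of Pdgfrb, Des and Gata3 in ob/ob vehicle against wild type turned negative on this scale, at -0.37, -0.18 and -0.33, and were not called on either scale. Gata3 relative to Itga8 read 0.15, 0.09 and 0.31 in enarodustat glomeruli, -0.24, -0.56 and -0.13 in ob/ob vehicle glomeruli and -0.01, 0.13 and -0.06 in wild-type glomeruli. The change with enarodustat against ob/ob vehicle was 0.49 ± 0.34 (adjusted p = 0.982 in limma, with 0% of all features called). Without this scaling the groups of Gata3 overlapped in every comparison. How many features have groups that do not overlap on this scale was not counted.

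**Figure D4:**
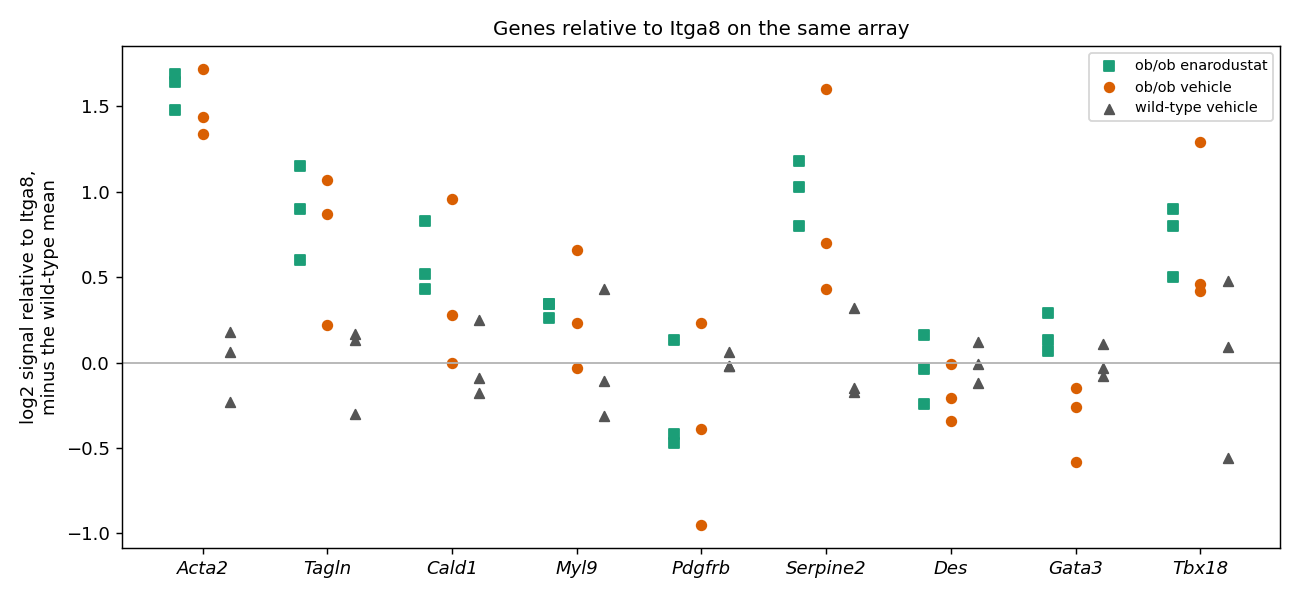
Log2 signal relative to Itga8 on the same array, minus the wild-type mean of the gene (vertical axis), for the other 9 genes, with 1 point per array. Acta2 is the gene whose 6 ob/ob points stand clear of the wild-type points by more than 1 unit. How many features have groups that do not overlap on this scale was not counted.

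Other genes of the contractile apparatus were partly higher in ob/ob glomeruli. Of a list of 18 that leaves out the 10 genes, 15 were tested, and in ob/ob vehicle against wild type 4 were called higher and 0 lower, with a median of 0.69. Over all features 4.89% were called higher and 2.66% lower in that comparison, and 6.1% and 4.09% in enarodustat against wild type. These shares hold for every list below, and no list was tested as a set. Synpo2, an actin-bundling protein of smooth muscle, rose by 1.47 ± 0.22 (adjusted p = 0.00644 in limma) and the actin crosslinker filamin A, Flna, by 0.88 ± 0.13 (adjusted p = 0.00604). Both kept their calls without any single array. The calls of Tpm1 (tropomyosin, 0.69) and Actn1 (alpha-actinin, 0.83) were lost when wild-type replicate 2 or any ob/ob vehicle array was left out, and that of Actn1 also without replicate 1 or 3 of the wild type, at adjusted p of up to 0.0903 and 0.087. Set against wild type, enarodustat glomeruli had 3 called higher, Synpo2 (1.36), Flna (0.62) and Tns1 (tensin, 1.07), with a median of 0.51. The calls of Tns1 and Flna there were lost without enarodustat replicate 1 or 3, and that of Flna also without wild-type replicate 2. In enarodustat against ob/ob vehicle none was called, and the median was -0.20.

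Of 18 SRF cofactors and stromal transcription factors, 3 were called higher and 1 lower in ob/ob vehicle against wild type, with a median of 0.51. Tbx2, a T-box repressor, read 3.75, 3.60 and 3.68 in ob/ob vehicle glomeruli, against 2.82, 2.87 and 2.42 in wild-type glomeruli, with no overlap (0.98 ± 0.14, adjusted p = 0.00604 in limma). Mrtfa and Mrtfb, the actin-sensing coactivators of SRF, rose by 0.52 (adjusted p = 0.0192) and 0.73 (adjusted p = 0.0275). Foxd1, a forkhead factor of stromal progenitors and podocytes, fell by 0.85 (adjusted p = 0.0431). The calls of Mrtfa, Mrtfb and Foxd1 were lost when replicate 2 of the wild type, or replicate 1 or 3 of the ob/ob vehicle group, was left out. Those of Mrtfb and Foxd1 were also lost without replicate 3 of the wild type or replicate 2 of the ob/ob vehicle group, and that of Foxd1 without wild-type replicate 1 or enarodustat replicate 1. Their highest adjusted p over the 9 arrays left out in turn were 0.0705, 0.096 and 0.136. With enarodustat against wild type 4 were called higher and 1 lower, among them Tbx2 (1.25, adjusted p = 0.00297) and Foxd1 (-1.35, adjusted p = 0.00733), both kept without any single array. In enarodustat against ob/ob vehicle none was called.

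A list of 7 other genes of PDGF signalling held the ligand genes Pdgfa, Pdgfb, Pdgfc and Pdgfd, the receptor gene Pdgfra, and Plat and Lrp1, which encode tissue plasminogen activator, a protease that activates PDGF-C, and a coreceptor. Of these, Pdgfa alone was called higher in ob/ob vehicle against wild type and none lower, where 4.89% of all features were called higher. It read 4.94, 4.75 and 4.80 in ob/ob vehicle glomeruli, against 4.04, 3.78 and 3.44 in wild-type glomeruli, with no overlap (1.07 ± 0.17, 2.10-fold, adjusted p = 0.00777 in limma). It was called again in enarodustat against wild type (0.85, adjusted p = 0.0165), where leaving out wild-type replicate 2, or enarodustat replicate 1 or 3, ended the call. The medians of the 7 were 0.52 and 0.59 in these comparisons, and -0.01 in enarodustat against ob/ob vehicle, with no call.

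Of 13 partners and ligands of integrin alpha-8 and other integrins that bind the RGD motif, 11 were tested, and 3 were called higher and 2 lower in ob/ob vehicle against wild type, with a median of 0.41. Fibronectin, Fn1, a ligand of this integrin, read 2.76, 2.85 and 1.84 in ob/ob vehicle glomeruli, against 0.14, 0.33 and -0.57 in wild-type glomeruli. The basement membrane protein genes Frem1 and Fras1 went in opposite directions, at 1.78 (adjusted p = 0.00419 in limma) and -1.56 (adjusted p = 0.00742). Itgb8, an integrin beta chain that pairs with alpha-v, fell by 1.53 (adjusted p = 0.00157) and in enarodustat against wild type by 2.01 (adjusted p = 0.000692). In that comparison 4 were called higher and 3 lower, with a median of 0.13, and in enarodustat against ob/ob vehicle none was called.

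Serpine2 acts on thrombin and plasminogen activators, and of 12 other genes of that axis 10 were tested. In ob/ob vehicle against wild type 4 were called higher and 0 lower, with a median of 0.52. F2r, the thrombin receptor, read 7.07, 7.25 and 7.24 in ob/ob vehicle glomeruli, against 5.89, 5.54 and 5.38 in wild-type glomeruli (1.58 ± 0.19, 2.99-fold, adjusted p = 0.00367 in limma). The groups did not overlap, and the call was kept without any single array. The calls of Thbd (thrombomodulin, 0.66) and Plaur (the urokinase receptor, 0.61) were lost when replicate 2 or 3 of the wild type or any array of the ob/ob vehicle group was left out, and that of Plaur also without any single enarodustat array. Against wild type, enarodustat glomeruli were called higher in 2 genes of this list and lower in 0, with a median of 0.47, and F2r was one of them (1.17, adjusted p = 0.00929 in limma). In enarodustat against ob/ob vehicle none of the 10 was called.

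Of 23 other mesangial and pericyte genes, 3 were called higher and 1 lower in ob/ob vehicle against wild type, with a median of 0.26. The shares over all features were 4.89% and 2.66%. Ren1, the renin gene of juxtaglomerular cells, had a change of 1.82 (adjusted p = 0.0458 in limma), the endothelin receptor gene Ednra 1.09 (adjusted p = 0.0357) and the gap junction gene Gja4 0.53 (adjusted p = 0.0322). Kcnj8, a potassium channel gene of pericytes, had -2.07 (adjusted p = 0.048). Each of these 4 calls was lost when replicate 1 or 3 of the ob/ob vehicle group, among other arrays, was left out, at adjusted p of up to 0.103 for Gja4 and 0.144 for Kcnj8. With enarodustat Gja4, Ren1 and Ednra were called higher than in wild type and none lower, with a median of 0.31 (6.1% of all features were called higher). There Gja4 (0.82) kept its call without any single array, and Ren1 and Ednra did not. In enarodustat against ob/ob vehicle none was called.

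Markers of other cell types moved with genotype in some lists. Of 10 macrophage markers, 6 were called higher in ob/ob vehicle against wild type, with a median of 1.63 and median levels of 1.29 to 1.99 in ob/ob vehicle glomeruli, against -0.86 to -0.18 in wild-type glomeruli. The log2 of their summed signal was 6.48 to 6.51 in ob/ob vehicle glomeruli, against 6 to 6.30 in wild-type glomeruli. Ptprc and Itgam went the other way, at means of 3.02 and 5.28 in ob/ob vehicle glomeruli, against 3.41 and 5.46 in wild-type glomeruli. Neither was called. C1qa was the 1 marker of this list not well above background on every array. Of 11 podocyte markers, 6 were called lower, among them Lmx1b (-1.17) and Magi2 (-0.98), with a median of -0.87. Their summed signal was 9.62 to 9.98 in ob/ob vehicle glomeruli, against 10.14 to 10.28 in wild-type glomeruli.

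Of 9 tested fibroblast markers, Col3a1 (1.93) and Dcn (1.66) were called higher and Col1a2 (-1.13) lower in ob/ob vehicle against wild type. The call of Dcn ended when replicate 1 or 3 of the wild type, replicate 1 or 2 of the ob/ob vehicle group, or any enarodustat array was left out. The median change of the list was -0.02, and Col1a1 was not well above background on every array. The summed signal of the list was 6.44 to 6.60 in ob/ob vehicle glomeruli, against 6.61 to 6.82 in wild-type glomeruli. Its brightest member, Pi16, averaged 6.1 and 6.15 in these groups. The median level of the list went the other way, at -0.79 to -0.24 in ob/ob vehicle glomeruli, against -2.55 to -1.71 in wild-type glomeruli. Of 5 tested vascular smooth muscle markers, 4 of which (Myh11, Cnn1, Actg2 and Kcnmb1) are also in the contractile list, none was called, with a median of 0.56, and their summed signal was 3.22 to 4.05 in ob/ob vehicle glomeruli, against 3.14 to 3.41 in wild-type glomeruli. The 12 proximal tubule markers had a median of -2.24 with no call. The 8 endothelial and 6 parietal epithelial markers had medians of 0.26 and -0.19 with no call. In enarodustat against wild type 4 macrophage markers were called higher and 8 podocyte markers lower. The part of these cell types in the changes of the contractile genes and Serpine2 was not tested, apart from the tubule covariate.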

How the data were processed

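Total RNA of isolated glomeruli was labelled with Cy3 and hybridised to single-colour Agilent arrays, per the labels' protocols. The deposited scanner files hold spot intensity on a linear scale, as extracted by the authors with Agilent Feature Extraction 11.5.1.1, with the background subtracted and no scaling across arrays, per the file headers. Probe coordinates are those of mm9, per the file headers. The deposited value table holds log2 values from the authors. Compared with the scanner output, each column was the log2 processed signal over the 75th percentile of the array, with a median offset of 0.0038 to 0.0069, so that scale, centring and direction were found from the values. Its column medians were -3.04, -2.95 and -3.05 in the enarodustat group, -3.10, -3.07 and -3.06 in the ob/ob vehicle group and -3.07, -3.03 and -2.93 in the wild-type group. limma is also named in the submitters' processing notes, with no role given.

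Of 62976 spots per array, control and outlier spots were left out, which gave 56605 probes, 32 of them without a value on some array. The 36671 probes kept had signal well above background throughout at least 1 group. Names came from RefSeq genes of GRCm38.p6 by accession (32975 probes), symbol (10221) or synonym (518), 2129 kept the name in the file and 10730 had none. Of the kept probes of a gene, the one that averaged highest over all 9 arrays was read. limma 3.58.1 in R 4.3.3 (data.table, version 1.17.8) fitted 3 groups to 9 arrays with lmFit, contrasts.fit and eBayes. P-values were adjusted by Benjamini-Hochberg over all 24161 features or, for probes, all 36671, and called under 0.05. Intervals are 95%. The number of arrays limits the precision. The fit was tested on simulated data. Figures were drawn with matplotlib 3.10.9 in Python 3.11.15.

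Named are the 10 genes, up to 4 called genes of each list and comparison with the smallest p (otherwise the 2 with the smallest p, not called), and for each of the 10 the 2 genes most like it. Not all genes that this allows are printed, and 1 is not reported here. The 10 genes and the lists were chosen with earlier results of these data known. Replicate numbers were checked as pairs: deviations of same-numbered arrays correlated at -0.308 to 0.272, so no pairing was seen and none entered the main fit. With 3 arrays per group this check cannot exclude a pairing. As alternatives, quantile scaling replaced the percentile, normexp (offset 50) with quantile scaling replaced the processed signal, the filter on dim probes was dropped, the probes of a gene were averaged, the 2 groups were fitted alone, replicate and slide were used as blocks, and each array was left out. The authors' value table was also fitted in place of the scanner values. Added after the data were seen were a tubule covariate, scaling to Itga8, reading genes from the probe with the highest wild-type mean and leaving out wild-type replicate 3 and enarodustat replicate 2 together. All arrays but enarodustat replicate 3 shared a slide, so the slide block gave the same fit as leaving that array out. Apart from Acta2 probe 2, the place of each probe in the exons and untranslated regions of mm9 was not analysed here. Promoters of Tagln and Pdgfrb were not used here.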

Additional observations from a re-analysis of the deposited data

How the results depend on the processing

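In enarodustat against ob/ob vehicle no feature was called under any alternative (0 by gene and by probe), and no change of a called gene among the 10 reversed. In ob/ob vehicle against wild type the genes called numbered 1824 (4 of the 10), but 1005 with no filter on dim probes, 679 (1 of the 10) with the tubule covariate and 418 (1 of the 10) scaled to Itga8. With single arrays left out they numbered 916 to 1775 (2 to 4 of the 10), and the count moved by more than 1.5 times when wild-type replicate 2 or 3 or any array of the ob/ob vehicle group was left out. By probe the 2645 calls (7 of the 19) became 1412 (4) with no filter, 960 (1) with the covariate, 718 (2) scaled to Itga8, 1710 (3) without wild-type replicate 3 and enarodustat replicate 2, and 1268 to 2646 (2 to 7) without single arrays. In enarodustat against wild type the 2462 genes called (3 of the 10) became 1230 with no filter, 1367 with the slide block, 363 (1 of the 10) scaled to Itga8, 1294 without those 2 arrays and 1219 to 2165 (2 to 4 of the 10) without single arrays, and averaging the probes of a gene left 1 of the 10. Here leaving out wild-type replicate 2 or any enarodustat array moved the count by more than 1.5 times. By probe the 3529 calls (4 of the 19) became 1764 (2) with no filter, 2038 (2) with the slide block, 608 (2) scaled to Itga8, 1751 (2) without those 2 arrays and 1780 to 3174 (2 to 5) without single arrays. The replicate block, whose numbers showed no pairing of the samples, left 1408 genes called (3 of the 10) and 4 of the 19 probes called in ob/ob vehicle against wild type. Fewer arrays and more features enter some of these fits by construction, and otherwise the cause was not tested. Of 218 results for single genes among the 10 under the alternatives, 199 kept their side of the threshold in ob/ob vehicle against wild type, 17 lost a call and 2 gained one. In enarodustat against wild type 207 of 218 kept it, 9 lost a call and 2 gained one. These counts include fits to the authors' value table, which holds nearly the same values and could hardly differ. They also include the slide block, which repeats the fit without enarodustat replicate 3. They are thus no tally of independent checks. Reading genes from the probe of the highest wild-type mean, which ended both calls of Acta2, left 1795 and 2435 genes called in these comparisons (3 and 2 of the 10). Tbx18, close to background in wild type, is limited by its signal.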

Other observations

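Correlations over the 9 arrays share the genotype difference and the scaling, so they are given as descriptions. Acta2 and Tagln ran together (Pearson's r = 0.923 over 9 arrays, 0.954 for deviations from the group means), and so did Itga8 and Des (0.913 and 0.918). Cald1 and Serpine2 had r = 0.980 over the 9 arrays and 0.868 within groups. Acta2 and Serpine2, both higher in ob/ob glomeruli, had r = 0.903 over the 9 arrays and 0.061 within groups. For Acta2 and Itga8 the order was the other way, with r = 0.657 over all arrays and 0.914 within groups.

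Among 15458 named genes, the 2 most like each of the 10 over the 9 arrays had r of 0.965 to 0.994. They were Klhl6 and Abcg5 for Acta2 (0.989 and 0.985), Dpcd and Kcnmb1 for Tagln (0.981 and 0.980), Spats2 and Rcn3 for Cald1 (0.993 and 0.990) and Tril and Rap2c for Myl9 (both 0.986). Serpine2 was most like Prag1 and Ralgds (0.994 and 0.993), and Tbx18 was most like Adcy7 and Zfp513 (0.980 and 0.967). Kcnmb1, a potassium channel subunit of smooth muscle, was in the contractile list, and its own change in ob/ob vehicle against wild type was 1.02 with an adjusted p of 0.125 in limma. With 9 arrays and this many genes, values of this size are the highest of a large number.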
